A study of Drosophila melanogaster with 2 samples.

Results

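The peaks described here are those where a tagged CG12769 protein sat at the promoter of a single protein-coding gene in fruit fly (Drosophila melanogaster) embryos. They were taken from the authors' list of 8574 peaks that passed IDR, a filter that scores how reproducibly peaks are ranked between replicates. A peak belonged if exactly 1 protein-coding gene had a transcription start site (TSS) within 500 bp of its summit, whatever noncoding TSSs were near. This gave 2592 of the 8574 peaks, or 30.2% (95% exact interval 29.3 to 31.2). Another 551 peaks (6.43%) lay within 500 bp of TSSs of 2 or more coding genes, and they serve below as the comparison. The libraries came from whole embryos of mixed sex, 10 to 24 h old, of a transgenic fly line that makes CG12769 with GFP at its C-terminal end, and DNA was pulled down with an antibody against GFP (ChIP-seq). The 2 libraries, biological replicates 5 and 7 per the labels, form 1 group, so that no treatment or genotype can be compared. The labels name neither the promoter nor the cells that express the transgene, nor do they say what CG12769 does. Embryos are a mix of tissues, so a weak peak in all cells and a strong peak in a few cannot be told apart.

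A promoter is the stretch around a TSS where general factors place RNA polymerase and where sequence-specific factors often bind just upstream. Many fly genes have several promoters, each starting its own set of transcripts, and those away from the 5' end of the gene lie inside its introns. Fly promoters are known to fall into housekeeping kinds, with elements such as the DRE, and regulated kinds, with a TATA box, an initiator or GAGA repeats. Genes with several promoters are often developmental regulators with long introns.

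In sequence, the windows around these summits held more CA repeats and GAGA repeats, and fewer TATA boxes and runs of A, than promoters without a peak. Of 17 short sequences searched on both strands in windows of 201 bp, the CRE site TGACGTCA, bound by bZIP factors, had the highest ratio to promoters without a peak, but it was rare: 17 of 2592 windows, or 0.656% (exact interval 0.383 to 1.05). Of 10099 windows at promoters with no IDR peak 0.267% held it, and of all 12476 promoter windows 0.369%. The CA repeat CACACACA stood in 8.72% (7.66 to 9.87), against 3.86% of promoters without a peak and 4.29% of all promoters. GAGAGAG, the letters bound by the GAGA factor Trl, stood in 9.88% (8.75 to 11.1), against 5.04% and 6.72%. The CRE site and the CA repeat were about as frequent at IDR peaks away from coding TSSs, at 0.718% and 8.71%. They are thus not particular to the single-gene peaks, while GAGAGAG stood in 5.84% of those other peaks. The windows of the peaks were also richer in G and C, with a median of 45.8% against 40.3% at promoters without a peak, and the part of this in the shares was not tested. To show what such windows look like, the strongest peak with each of these 3 sequences, among those considered for printing, is shown in 80 bases upstream of the TSS, 5' to 3' on the strand of the gene, with all matches to that sequence in capitals.
Unr: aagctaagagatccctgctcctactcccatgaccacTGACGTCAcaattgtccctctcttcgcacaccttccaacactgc
ab: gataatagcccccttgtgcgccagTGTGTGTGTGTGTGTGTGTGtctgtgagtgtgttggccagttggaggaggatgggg
IP3K1: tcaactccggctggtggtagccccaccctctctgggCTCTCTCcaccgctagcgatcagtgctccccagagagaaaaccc
Unr encodes an RNA-binding protein, and its window lies at chr3L:8442387-8442466 (-) in dm6, 85 to 6 bp upstream of the TSS. Its summit was 42 bp upstream, 3.5 bp from the middle of the CRE site, and its value 502.07. In ab, which encodes a zinc finger transcription factor, the window is chr2L:11210431-11210510 (+) and the summit lay 204 bp upstream, inside the run of alternating T and G, with a value of 507.74. In IP3K1, an inositol trisphosphate kinase gene, the window is chr2L:9782189-9782268 (+), and the GAGA match, read on the opposite strand as CTCTCTC, lay 2 bp from a summit of value 2777.13.

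The next 4 sequences show windows of high value, which held from 0 to 4 matches to the 17 searched sequences, overlapping matches counted apart. They belong to those of the 12 strongest peaks whose summit was outside every annotated gene, with up to 60 bp to each side of the summit, stopping before the TSS, and every match to any of the 17 in capitals.
Ugalt: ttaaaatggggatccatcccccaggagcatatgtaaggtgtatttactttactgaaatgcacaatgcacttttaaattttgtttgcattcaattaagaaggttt
CG14100: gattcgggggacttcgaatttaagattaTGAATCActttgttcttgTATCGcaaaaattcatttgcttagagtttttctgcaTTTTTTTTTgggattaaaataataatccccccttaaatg
Atf3: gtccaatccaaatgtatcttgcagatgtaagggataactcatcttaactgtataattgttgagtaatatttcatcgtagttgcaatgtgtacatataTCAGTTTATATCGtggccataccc
amon: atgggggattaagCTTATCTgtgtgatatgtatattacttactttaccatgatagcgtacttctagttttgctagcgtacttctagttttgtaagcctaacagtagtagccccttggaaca
The window of Ugalt, chrX:2703853-2703956 (-), printed above held none of them, and its value of 7293.28 was the highest of the 2592. That of CG14100, chr3L:19590549-19590669 (-), held the AP-1 letters TGANTCA, the site CGATA bound by the insulator protein BEAF-32, and overlapping runs of 8 A or T. Atf3, chrX:1275433-1275553 (-), held the CGATA site, the TATA box TATAAA and the initiator TCAGTT, which overlap one another. In amon, chr3R:26714318-26714438 (-), there was 1 GATA site, AGATAAG, read on the opposite strand. A match is a string of letters and not a tested binding site.

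Of the housekeeping sequences, the DRE and Motif 1 were not more frequent at these peaks than at promoters without one, while the Ohler 7 core was. The Ohler 7 core, CAGCGCT, stood in 3.20% (2.56 to 3.95) against 2.23% of promoters without a peak, and in 1.58% of IDR peaks away from coding TSSs. The DRE, TATCGATA, which contains CGATA, stood in 3.16% (2.52 to 3.91) against 4.50%, and Motif 1, GGTCACAC, in 2.82% (2.21 to 3.53) against 3.56%. CGATA itself was level, at 30.9% against 31.3%. TATAAA stood in 18.6% (17.1 to 20.1) against 32.0% of promoters without a peak and 29.6% of all. Runs of 8 A stood in 6.06% against 11.3%, and TCAGTT in 18.8% against 23.8%. IDR peaks away from coding TSSs held TATAAA in 20.9%, runs of 8 A in 7.16% and TCAGTT in 12.7%. Lower shares of these 3 than at promoters without a peak were thus not particular to the single-gene peaks. With 50 bp in place of 100 bp to each side, TCAGTT was level, at 10.07% against 10.14%, and CGATA was lower, at 17.6% against 20.7%. All these background windows were centred 53 bp upstream of the TSS, the median position of the peaks, while each window of a peak was centred on its own summit, so elements fixed to the TSS are not caught equally.

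The summits gathered around the TSS, more of them upstream of it than downstream. Of the 2592, 63.1% (61.2 to 65.0) lay upstream of the nearest TSS of their gene, against 45.2% of the bases that the rule makes eligible. The median was 53 bp upstream, the middle 50% lay between 168 bp upstream and 47 bp downstream, and 3 summits fell on a TSS itself. Within 100 bp of the TSS lay 44.9% (43.0 to 46.8), against 21.1% of eligible bases. The density was flat from 150 bp upstream to 49 bp downstream, at 434.6 to 450.1 summits per Mb of eligible bases, and the exact intervals of these bins overlap. It dropped to 326 at 50 to 99 bp downstream, 162 at 100 to 149 bp and 35.3 at 250 to 299 bp. Upstream the decline was slower, with 277 at 201 to 250 bp and 110 at 451 to 500 bp. The stretch 201 to 500 bp downstream held 8.33% (7.30 to 9.46) of summits against 33.4% of eligible bases.

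**Figure D1:**
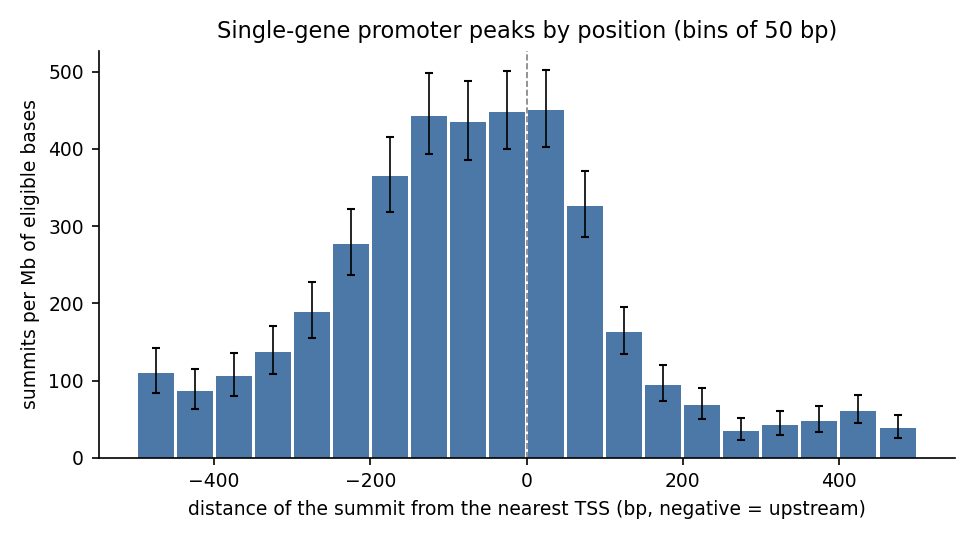
Summits per Mb of eligible bases (vertical axis) in bins of 50 bp by distance from the nearest TSS (horizontal axis, negative upstream), with exact 95% intervals for counting error as black bars. The plateau from 150 bp upstream to 49 bp downstream is at 434.6 to 450.1 per Mb, and the downstream side falls to 35.3 per Mb at 250 to 299 bp.

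The replicate peaks that overlapped these lay at like positions, as their choice by overlap and the shared reads largely fix. Peaks of replicate 5 that overlapped these had a median of 55 bp upstream with 64.2% upstream, and those of replicate 7 a median of 59 bp upstream with 62.2%. The summits of both replicates lay a median of 25 bp apart, and on the same side of the TSS in 88.9% of 2510 peaks. At the 906 peaks of genes with 1 TSS position the median was 56 bp upstream, with 64.2% (61.0 to 67.4) upstream. By gene part, 37.0% of summits lay outside the gene, 31.7% in its 5' UTR, 28.4% in an intron of it and 2.85% in coding sequence. Another coding gene contained 242 of the summits, 9.34%.

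How a peak's position was recorded differed with its width, and this bears on the statements about position. Of the 2592 peaks, 1277 (49.3%) were exactly 390 bp wide, the commonest width of the list, and in 1275 of these the summit was the middle of the interval. The others ranged from 98 to 1517 bp in width, with a median of 239. The peaks 390 bp wide had a median of 19 bp upstream, with 56.1% (53.3 to 58.8) upstream and 55.4% (52.6 to 58.1) within 100 bp. The peaks of other widths had a median of 105 bp upstream, with 70.0% (67.4 to 72.4) upstream and 34.8% (32.2 to 37.4) within 100 bp. Both classes lay above the eligible bases on both measures, at 45.2% and 21.1%, but they peaked in different places. The replicate lists had their own commonest widths, 360 bp for 26426 of 30000 peaks in replicate 5 and 396 bp for 25616 of 30000 in replicate 7. No label or file header says how the intervals were set.

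**Figure D2:**
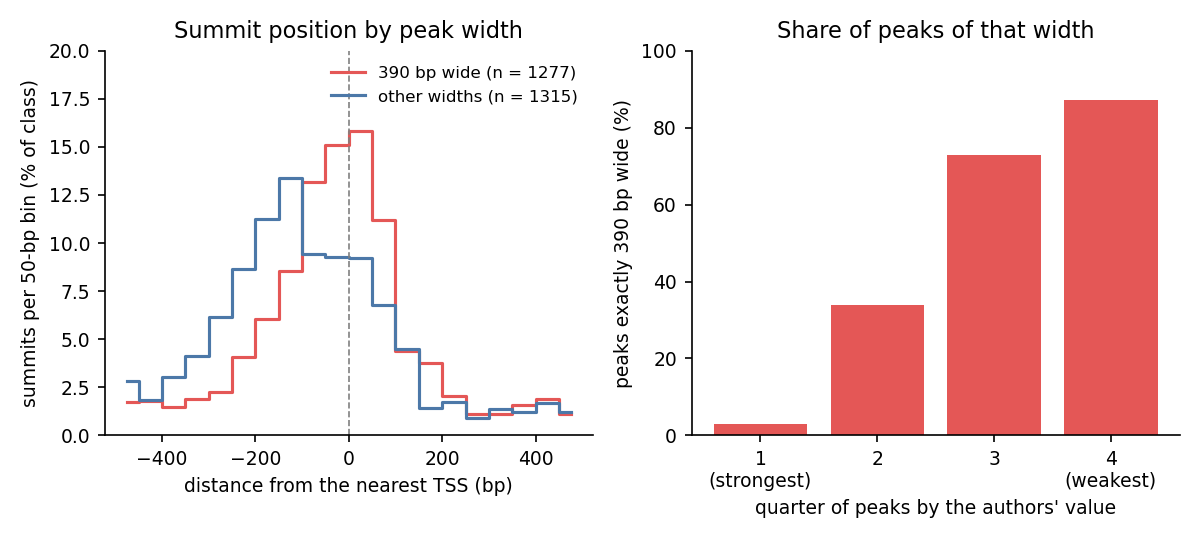
Left, share of summits in each 50-bp bin by distance from the nearest TSS for the 1277 peaks 390 bp wide and the 1315 peaks of other widths. Right, share of peaks 390 bp wide in each of 4 equal groups of 648 peaks by the authors' value. The peaks 390 bp wide centre near the TSS and make up 2.93% of the strongest group and 87.2% of the weakest.

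The peaks lay at 2025 of the 13945 protein-coding genes, which is 14.5% of them, and at 2423 of 17154 promoters, or 14.1%. Here a gene's TSSs were joined into 1 promoter where neighbours lay at most 500 bp apart. Most genes had 1 peak (1615), while 304 had 2, 72 had 3, 22 had 4, 10 had 5, 1 had 7 and 1 had 8. The share of genes with a peak went with the number of their promoters: 9.44% (8.92 to 9.98) with 1 promoter, 35.7% with 2, 50.6% with 3, 71.4% with 4, and 78.4% (69.2 to 86.0) with 5 or more. More promoters give more chances, yet the share per promoter rose too, from 9.44% to 21.4%, 25.1%, 30.1% and 33.1% (29.3 to 36.9). Per Mb of eligible bases the peaks numbered 133, 279, 310, 343 and 367. Genes with several promoters therefore supplied 907 of the 2025 genes, 44.8% (42.6 to 47.0), against 15.1% of all coding genes. Whether the gene was active in these embryos was not measured.

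**Figure D3:**
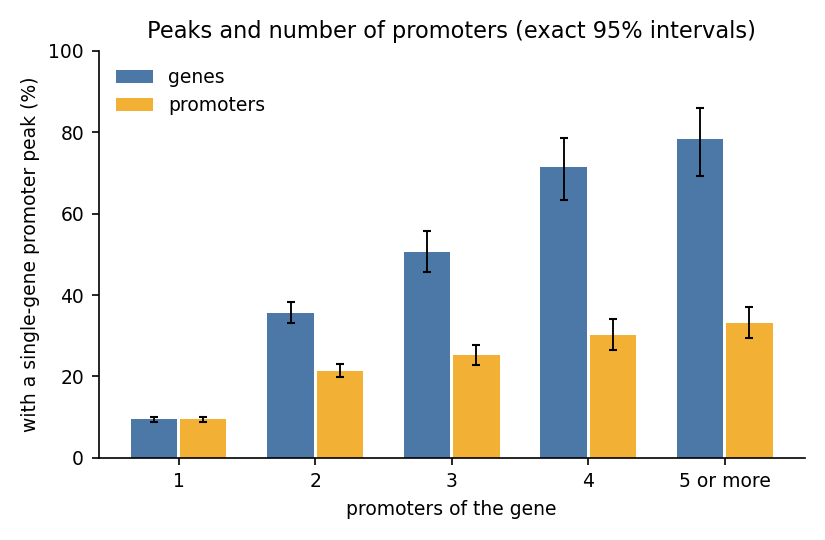
Share of genes (blue) and of promoters (yellow) with a peak, in percent, by the number of promoters of the gene, with exact 95% intervals. Both rise, for genes from 9.44% to 78.4% and for promoters from 9.44% to 33.1%.

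Among the promoters of 1 gene, the peaks lay at the first about as often as at the last. At genes with 2 or more promoters there were 1407 peaks. The promoter nearest the 5' end of the gene held 37.2% (34.7 to 39.8), against 37.6% if each promoter of the gene were taken evenly and 33.2% of the genes' eligible bases. The last promoter held 35.1% (32.6 to 37.7), with an even share of 37.6% and 40.7% of bases. Promoters in between held 27.6% (25.3 to 30.1), with an even share of 24.8% and 26.1% of bases. So the first promoter was level with the even share and above its share of bases, the last was at the edge of the even share and below its share of bases, and the order depends on which reference is used.

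In genes with 3 promoters the middle one held 41.5% (36.1 to 47.1) of 323 peaks, above an even share of 33.3%, while its 36.2% of bases was inside the interval. In genes with 2 promoters the peaks split 51.3% to 48.7% between first and last. The promoter of the annotated canonical transcript held 41.5% (38.9 to 44.1) of the 1407 peaks, above the even share of 37.6%. Of the 907 genes, 605 (66.7%) had peaks at 1 promoter only, 302 at 2 or more and 120 at all of theirs. The nearest promoter was the same in both replicates for 1362 of 1368 peaks (99.6%), which is nearly fixed by construction: the replicate peaks were taken for overlapping the peak, and promoters of a gene lie over 500 bp apart.

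**Figure D4:**
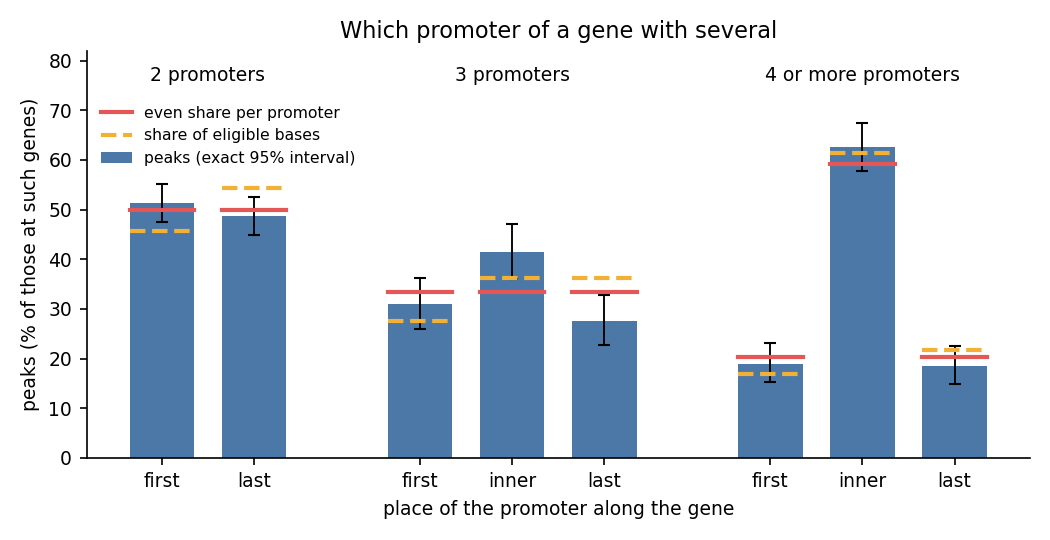
Share of peaks in percent (bars, with exact 95% intervals) at the first, inner and last promoters of genes with 2, 3 and 4 or more promoters, with the even share per promoter (red line) and the share of eligible bases (dashed yellow line). In genes with 3 promoters the inner one holds 41.5%, against 33.3% for an even share.

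Peaks at inner and last promoters lay farther upstream of their TSS than those at first promoters. The median was 111 bp upstream at inner promoters, with 68.6% (63.8 to 73.2) of 389 upstream, and 92.5 bp at last promoters, with 69.8% (65.6 to 73.9) of 494. At first promoters it was 29.5 bp, with 55.9% (51.5 to 60.2) of 524 upstream, and at genes with 1 promoter 41 bp, with 61.7% (58.9 to 64.5) of 1185. The peaks of inner promoters lay in an intron of the gene in 70.4% of cases and those of last promoters in 66.2%, against 8.59% at first promoters. The authors' values had medians of 325, 307 and 299.8 at inner, last and first promoters. At genes with several promoters, the first held 41.1% of peaks 390 bp wide, the class nearer the TSS, and 33.6% of the others. The part of width in the difference in position was not tested. Nor was the upstream share of eligible bases taken for each place.

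At genes with 4 or more promoters the first promoter held 18.9% (15.2 to 23.1) of 407 peaks. An even share of 20.4% and its 16.9% of eligible bases both lay inside the interval. Most peaks thus lay at the other promoters, as an even share would give. The 6 strongest of the 407 peaks were all at promoters other than the first. They belonged to gish, a casein kinase I gene (value 3086.90, promoter 3 of 4), larp, an RNA-binding protein gene (2528.86, 5 of 5), and dnc, the cAMP phosphodiesterase gene (2512.89, 5 of 8). Next were Rtnl1, a reticulon of the endoplasmic reticulum (2345.57, 6 of 7), papi, of the piRNA pathway (2295.45, 2 of 4), and sgg, the GSK3 kinase (2236.98, 6 of 8). All 6 summits lay upstream of their TSS, by 158 bp in gish and up to 330 bp in larp. The peak of gish ranked 124 in replicate 5 (value 874.98) and 25 in replicate 7 (2208.34), and that of sgg ranked 89 (998.06) and 112 (1231.83).

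Svil and CAP had the most peaks, and Pfrx and ps are described as those of highest value among the 10 genes tied at 5 peaks. Svil, which encodes the actin-binding supervillin, had 8 peaks at 8 of its 16 promoters over 121572 bp, with values from 172.09 to 886.27. CAP, an adaptor protein gene, had 7 peaks at 6 of 9 promoters, with values from 193.51 to 639.51. Pfrx, which encodes the enzyme that makes and removes fructose 2,6-bisphosphate, had 5 at 3 of 5 promoters, the strongest at 1797.59. The splicing regulator ps had 5 at 4 of 6 promoters, the strongest at 981.19. All 25 of these peaks were found in both replicate lists, though not all at like rank: the Svil peak 244 bp downstream of its TSS (348.61) ranked 12110 in replicate 5 and 1742 in replicate 7. Over all genes, 212 peaks overlapped another peak of the group, and of the 410 genes with 2 or more peaks, 108 had all of them at 1 promoter.

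The authors' value of the 2592 peaks ran from 169.8 to 7293.28, with a median of 307.8, against 288.9 over the whole IDR list. Ugalt, a UDP-galactose transporter gene, had values of 3584.50 in replicate 5 (rank 5) and 3771.22 in replicate 7 (rank 6), with the summit 54 and 38 bp upstream of its TSS. CG14100 had 2470.38 (rank 14) and 4723.27 (rank 4), with the summit 85 bp upstream in both lists. Here and below, values of the replicates come from separate lists whose scales may differ, so each is given with its rank and read within its own list. The peak of the Polycomb group gene ph-p ranked 12 and 8 (2702.60 and 3424.17) and lay 493 bp upstream of its second promoter, in an intron and near the limit of the rule. CG1888, known only by number, ranked 8 and 15 (2954.41 and 2867.00), 228 bp upstream of its second promoter.

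The rest of the first 12 were genes of unlike kinds. Atf3, a bZIP transcription factor gene, ranked 17 and 18 (2246.70 and 2811.25), with its summit 209 bp upstream. PNPase, an RNA-degrading enzyme of mitochondria, ranked 26 and 10 (1914.48 and 3121.49), and Elp6, of the Elongator complex, ranked 16 and 43 (2388.81 and 1830.15). The summits of PNPase and Elp6 were downstream of their TSS, by 80 and 152 bp. The wing vein gene px (20 and 14), eIF6, which acts in large ribosomal subunit assembly (9 and 29), and the prohormone convertase gene amon (10 and 32) followed, all upstream. MFS10, a transporter gene, ranked 13 and 30, and the nuclear receptor gene ftz-f1 24 and 26. For eIF6 and ftz-f1 a TSS of a noncoding gene, asRNA:CR45928 and lncRNA:CR45939, also lay within 500 bp, as it did for 156 of the 2592 peaks (6.02%).

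The replicates ranked the peaks alike in broad terms. A peak in both replicate lists overlapped 2510 of the 2592 (96.8%), which the making of the IDR list partly fixes, while 27 had none in replicate 5 and 55 none in replicate 7. Across the 2510, Spearman's rho between the values in replicate 5 and replicate 7 was 0.657, a description over peaks that share these libraries. Ranks differed by at most 2 times for 71.6% and by more than 8 times for 33 peaks. Among named genes the peak of the ecdysone-induced nuclear receptor gene Eip75B, 65 bp downstream of promoter 5 of its 7 (value 788.95), ranked 6464 in replicate 5 and 351 in replicate 7.

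At the edge of the rule, jim (value 937.87), dao (336.87) and EcR (182.69) had summits 499, 499 and 498 bp upstream of their TSS. Just outside it, ACC (657.7) lay 501 bp downstream, and Duox (403.3) and tow (229.3) 502 bp upstream.

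CG12769 itself, at chr2R:8052080-8065554 (-) in dm6, had 2 of the peaks. That at its first promoter, chr2R:8065549-8065858, had its summit 151 bp upstream of the TSS in both replicates, with values of 406.36 (rank 605) in replicate 5 and 593.56 (rank 499) in replicate 7. That at its second promoter, chr2R:8058440-8058758, had 298.21 (rank 1079) and 252.85 (rank 2283). Within 5000 bp of its TSSs stood 14 summits of the IDR list. The tagged copy is made from the same gene, and whether its DNA adds to these peaks was not tested.

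Genes with such a peak were longer than others, above all in their introns. Their median length was 6408 bp (quartiles 2619 and 16785), against 2166 bp (1179 and 4998) for all coding genes. The first intron of the canonical transcript had a median of 1081 bp against 98 bp, and exceeded 1000 bp in 48.9% (46.7 to 51.1) of genes against 18.7%. The 5' UTR had a median of 321 bases against 120, the coding sequence 1608 bp against 1176 bp, and exons numbered 5 against 3. Genes of a single exon made up 5.88% (4.89 to 6.99) against 16.1%. Genes known only by a CG or CR number made up 29.7% against 43.7%.

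The same measures were taken in genes with 1 promoter alone. The 1118 such genes with a peak had a median length of 3114 bp against 1825 bp, a first intron of 539 bp against 73 bp, and a 5' UTR of 214 bases against 104. Their coding sequence was 1287 bp against 1071 bp. The contrast had the same direction in each of these measures and was smaller in each than over all genes. Genes of the peaks shared by several coding genes were closer to the average, at 2840 bp in length with a first intron of 143.5 bp.

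The promoters with a peak also had more room upstream. The nearest coding gene upstream was a median of 1841 bp away, against 769 bp for all promoters, and for the first promoter of a gene 983 bp against 514 bp. It lay on the opposite strand for 47.4% (45.3 to 49.5) against 56.0%, and 9.12% (8.004 to 10.3) of these promoters lay inside another coding gene against 16.8%. Part of this is set by the rule, which drops promoters that share a peak with a neighbour. By chromosome arm, peaks per Mb of eligible bases ran from 176 on the X to 213 on 3L, with 182 on 2L, 193 on 3R and 205.4 on 2R, and chromosome 4 had 14 peaks, or 130 per Mb.

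Among 26 lists of genes, those of muscle, embryonic signalling, sugar metabolism, nuclear receptors and cytoplasmic ribosomal proteins had the largest shares of genes with a peak. Against 14.5% of all coding genes, 15 lists were above and 11 below, and the exact intervals of 6 lay wholly above and of 7 wholly below. In muscle 20 of 35 genes had one (57.1%, 39.4 to 73.7), with a median best value of 307.2. First were sls, which encodes a titin-like sarcomere protein (520.85 at rank 372 in replicate 5, 895.11 at rank 210 in replicate 7), kirre, of myoblast fusion (651.67 at rank 233 and 646.59 at rank 426), and the troponin C gene TpnC73F (581.63 at rank 305 and 560.11 at rank 558), with summits 269, 171 and 156 bp upstream. Of the muscle genes 54.3% have 2 or more promoters. Among those with 1 promoter, 7 of 16 (43.8%) had a peak, where the background is 9.44%.

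Signalling genes of the embryo had 32 of 66 (48.5%, 35.99 to 61.1), and 12 of 35 of those with 1 promoter (34.3%). They were led by sgg, aop, an ETS repressor of the EGF receptor pathway (value 1773.84), and spi, a ligand of that receptor (1440.83). In aop the replicates had 1134.67 at rank 74 and 685.07 at rank 374, with summits 152 and 65 bp upstream of its second promoter, and in spi 329.71 at rank 903 and 1155.05 at rank 129. Nuclear receptors had 9 of 21 (42.9%, 21.8 to 66.0), led by ftz-f1, Eip75B and ERR, and 2 of the 9 with 1 promoter (22.2%). Glycolysis and central carbon genes had 12 of 27 (44.4%, 25.5 to 64.7), led by Gapdh2 (2773.54), Gpo1 (1269.86) and the hexokinase gene Hex-A (1048.19), and 3 of 16 with 1 promoter (18.8%). Basic helix-loop-helix factors had 14 of 52 (26.9%, 15.6 to 41.0), led by the pair-rule repressor gene hry (2251.40), E(spl)m3-HLH (1700.37) and gce (1464.80), a receptor for juvenile hormone.

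Cytoplasmic ribosomal protein genes differed from these in structure, as 4.30% of them have several promoters. A peak stood at 34 of 93 (36.6%, 26.8 to 47.2), and at 31 of 89 with 1 promoter (34.8%). The first were RpL23A (458.68 at rank 471 in replicate 5, 814.80 at rank 260 in replicate 7), RpL30 (377.53 at rank 698 and 602.52 at rank 492) and RpL22 (353.86 at rank 792 and 454.31 at rank 818), with summits 112, 27 and 54 bp upstream. Of the others above the background, heat shock proteins and chaperones had 8 of 31, led by Hsp83 (984.13), Hsp27 and DnaJ-1, and septate junction genes 5 of 19, led by moody (3375.05), a receptor of the glia that seal the nervous system. Chromatin regulators had 9 of 42, led by ph-p, ph-d and Su(z)2, translation factors 10 of 51, led by eIF6, eEF1gamma and eEF5, and homeobox factors 15 of 83, led by NK7.1, tin and tup. Cell cycle genes had 9 of 47, led by Dp, CycG and mad2, and splicing factors 6 of 37, led by Sxl, ps and mub. The list of synapse and ion channel genes had 9 of 52, led by elav, dlg1 and Nlg1, though elav encodes an RNA-binding protein. Rab GTPases had 5 of 33, led by Rab1, Rab26 and Rab32. All of these shares had intervals that included 14.5%. Several of these sides moved with 1 library. Without replicate 5 the synapse list was below its background, at 11.5%, and the Rab list too, at 9.09%, while without replicate 7 the Rab list stood at 12.1% and heat shock proteins at 16.1% in place of 25.8%. Of 7 other settings, the Rab list was above the background in 2, translation, homeobox and cell cycle lists in 5, and heat shock, synapse and splicing lists in 6.

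**Figure D5:**
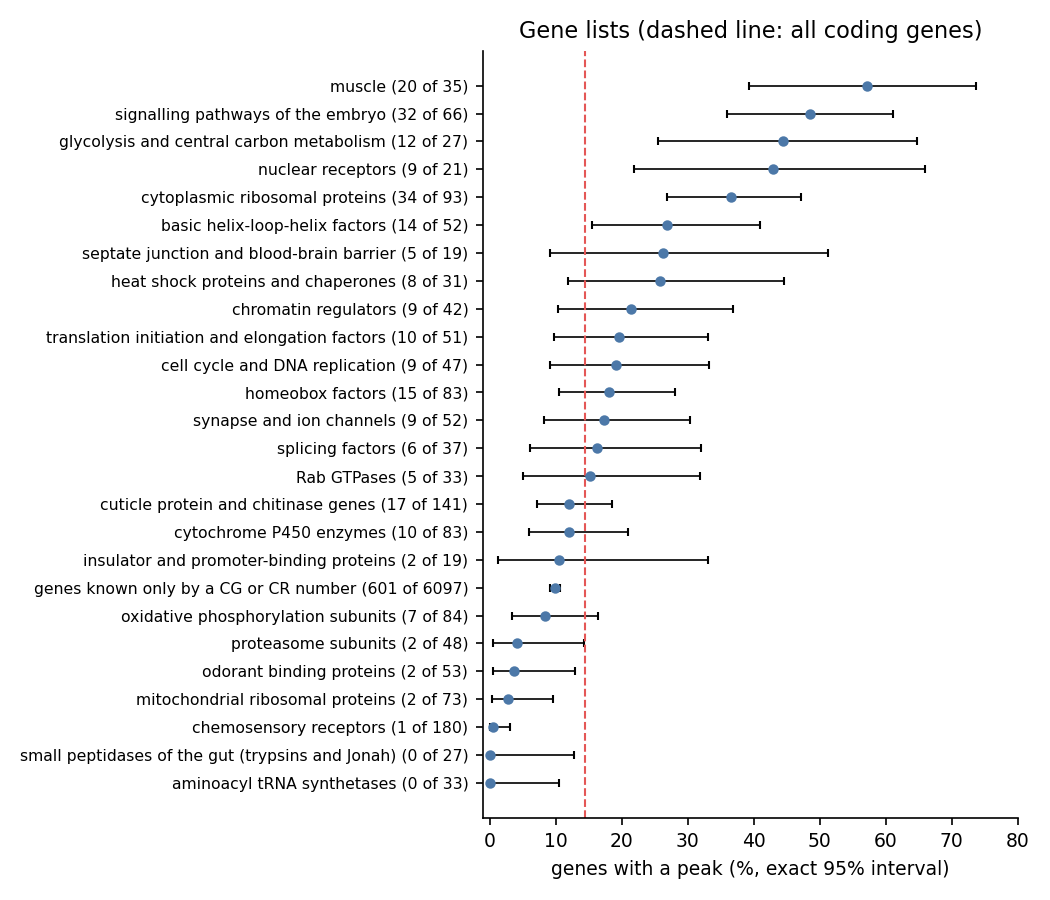
Share of the genes of each of 26 lists with a peak, in percent (points, with exact 95% intervals), with the counts beside each name and the share of all coding genes, 14.5%, as a dashed line. The 6 uppermost lists lie wholly above the line, from muscle at 57.1% to basic helix-loop-helix factors at 26.9%.

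Lists of the chemical senses, the gut and the mitochondrial ribosome had few such peaks or none. Chemosensory receptor genes had 1 of 180 (0.556%, 0.0141 to 3.06), at Gr39a (95.61 at rank 6511 in replicate 5, 172.60 at rank 4258 in replicate 7), whose summit lay inside the coding gene Mondo. Odorant binding protein genes had 2 of 53, Obp83g and Obp99b, proteasome subunits 2 of 48, Rpn11 and Rpn9, and the trypsin and Jonah peptidases 0 of 27, which allows a share of up to 12.8%. Aminoacyl tRNA synthetase genes had 0 of 33, which allows up to 10.6%. Genes known only by number had 601 of 6097 (9.86%, 9.12 to 10.6). Insulator and promoter-binding proteins had 2 of 19, Trl and BEAF-32, cuticle and chitinase genes 17 of 141, led by Cpr47Eg, Cht7 and obst-E, and cytochrome P450 genes 10 of 83, led by Cyp4e2, Cyp310a1 and Cyp4d1, all with intervals that included the background. The insulator list stood above it, at 21.1%, without replicate 5, and the cuticle list was above it in 2 of 7 other settings. In the smallest counts, chemosensory receptors had 2 without replicate 7 and proteasome subunits 3 without replicate 5.

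For some lists the single-gene rule bears on the count. Over all 13945 coding genes, 1063 had a peak shared with another coding gene. Mitochondrial ribosomal protein genes had 2 of 73 (2.74%, 0.334 to 9.55), mRpL41 and mRpL4, while 23 had a peak shared with another coding gene. The mRpL4 peak (316.22) overlapped none in replicate 5, and without replicate 7 the list had 1 gene with a peak. Oxidative phosphorylation genes had 7 of 84, led by ND-15, COX7AL2 and ATPsynC, while 14 had a shared peak. Of the insulator and promoter-binding proteins 6 of 19 had a shared peak and 7 any peak at a coding promoter. Proteasome subunits had 4 of 48 with a shared peak and tRNA synthetases 3 of 33, both near the share of all coding genes. Among ribosomal proteins of the cytoplasm 16 of 93 had a shared peak.

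Set against the 551 peaks at several coding genes, the single-gene peaks were weaker by the authors' value and held other sequences. Two-sided exact tests (Fisher) with p-values adjusted by Benjamini-Hochberg over 21 measures found 12 that differed. Their units are peaks of 1 list, so the p-values hold nothing on how animals vary. Of the single-gene peaks 54.4% had a value above the median of the IDR list, against 65.0% (adjusted exact p = 1.9e-05), and 28.6% against 38.1% were among its strongest 2143 (3.62e-05). Without replicate 7 neither passed, with differences of -4.04 and -3.44 points (adjusted exact p = 0.137 and 0.173). Neither passed within the peaks 390 bp wide (0.450 and 0.149) or within those of other widths (0.0618 and 0.0594, adjusted exact p). Found among the strongest 8574 of both replicates were 78.2% and 78.6% (adjusted exact p = 0.956). Within 100 bp of the nearest TSS lay 44.9% against 64.6% (8.24e-16), but a peak at several genes has more TSSs within reach by its definition.

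Most of the sequences of housekeeping promoters searched were rarer at single-gene peaks, and repeats were more frequent. The DRE stood in 3.16% against 10.3% (adjusted exact p = 2.48e-10), CGATA in 30.9% against 43.7% (8.58e-08), and Motif 1 in 2.82% against 7.08% (1.94e-05). TATAAA stood in 18.6% against 27.4% (1.9e-05), CAGCTG, an E-box, in 12.9% against 19.1% (0.000535), and GGTATTTT, the Ohler 6 element, in 2.78% against 5.44% (0.00559). The Ohler 7 core went the other way without passing, at 3.20% against 2.72% (adjusted exact p = 0.846). Higher at single-gene peaks were GAGAGAG, with 9.88% against 3.63% (2.55e-06), CACACACA, with 8.72% against 3.63% (3.82e-05), and TCAGTT, with 18.8% against 13.4% (0.00507). The median share of G and C was 45.8% against 38.8%, and its part in these differences was not tested. Nor was the part of nearness to a TSS. Peaks at several genes have more TSSs within reach by definition, and 64.6% of them lay within 100 bp of one, against 44.9% of single-gene peaks. Which of the differences passed depended on which peaks were compared. The strongest 2143 peaks of the IDR list held 741 single-gene peaks and 210 at several coding genes. Among these, 4 of the 21 measures passed, and of the sequences that had differed only TATAAA did. The differences in the housekeeping sequences that had passed were smaller there and did not pass: -2.27 points for the DRE (adjusted exact p = 0.233), -6.77 for CGATA (0.148), -2.19 for Motif 1 (0.148) and -0.63 for the Ohler 6 element (0.745). The GAGA repeat, the CA repeat, the initiator and the E-box did not pass there either (0.0586, 0.0623, 0.187 and 0.168, adjusted exact p). Their differences kept their direction, at 5.63, 4.37, 5.16 and -4.79 points, against 6.25, 5.09, 5.40 and -6.13 over the whole IDR list. The part of the smaller number of peaks in these results was not tested.

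Within the peaks 390 bp wide the differences in TATAAA (-3.16 points, adjusted exact p = 0.450), TCAGTT (1.16 points, 0.956) and CACACACA (5.19 points, 0.0503) did not pass. Among peaks of other widths that in the Ohler 6 element did not (-1.12 points, adjusted exact p = 0.422). When TSSs up to 1000 bp away were counted, the one in CAGCTG did not (-2.44 points, adjusted exact p = 0.0932), nor did the share among the strongest 2143 peaks (-3.60 points, 0.0647). The DRE, CGATA, Motif 1 and GAGAGAG passed in both width classes.

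Strong and weak single-gene peaks differed in position, in a way that moved with peak width and with the list used. The 648 strongest (value 485.3 and up) were set against the 648 weakest (up to 225.1) over 22 measures, of which 2 passed and 5 had an unadjusted p under 0.05. The summit lay within 100 bp of the TSS in 33.2% of the strong and 48.8% of the weak peaks (two-sided Fisher test, exact, p adjusted by Benjamini-Hochberg = 3.31e-07), and upstream in 71.5% and 59.4% (7.29e-05). From the strongest to the weakest of the 4 groups of 648, the median was 113, 60, 21.5 and 38 bp upstream. This moved with the width of the peaks: 2.93% of the strongest group were 390 bp wide, against 34.0%, 73.0% and 87.2% in the groups that followed. Among peaks of other widths the difference within 100 bp was 11.6 points in the same direction (adjusted exact p = 0.0351) and the one upstream did not pass (8.54 points, 0.147). Among peaks 390 bp wide both turned, to a difference of 10.03 points within 100 bp and -7.52 points upstream, strong minus weak, without passing (0.147 and 0.362). Over the whole pooled list the difference within 100 bp was also turned, with 8.39 points more among the strong peaks (2.57e-05), while that upstream was 12.96 points and kept its direction (1.41e-11).

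No sequence differed between strong and weak peaks past the threshold. The closest were Motif 1, in 1.39% of the strong and 3.86% of the weak peaks (adjusted exact p = 0.0600), and CACACACA, in 6.17% and 10.2% (0.0604). Genes with 2 or more promoters held 53.7% of the strong and 52.5% of the weak peaks (0.920), and a noncoding TSS was within 500 bp of 5.86% and 6.94% (0.861).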

How the data were processed

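Peak lists of ChIP-seq with an antibody against GFP were analysed from 2 replicates of 1 group. The authors deposited 4 lists on dm6: 1 per replicate, 1 of the pooled replicates, each with exactly 30000 peaks, and the IDR list. The signal value of each peak is the authors' own on an unstated scale, used only within a list. The −log10 q-value was deposited as well, and 67.7% of these peaks shared its highest value, 4.04. For the aligner, the peak caller or the cut-off of the lists, nothing is stated in the labels or headers, and control reads were not analysed here. No read counts are in the lists, so depth is unknown. Intervals are exact (Clopper-Pearson) and cover counting error only.

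A summit is the deposited offset added to the start, kept inside the interval (1 was moved). TSSs of all transcripts came from Ensembl release 115 (BDGP6.54, the sequence of dm6), arms 2L, 2R, 3L, 3R, 4 and X, and sequence from the RefSeq assembly of that genome. Eligible bases, 13.3 Mb, are those within 500 bp of a TSS of exactly 1 coding gene. Background windows stood at promoters with no IDR summit within 500 bp. Strong and weak are the 648 peaks of highest and of lowest value. Sequences of arm 2R were not considered for printing. Python 3.11.15, numpy 2.4.6, scipy 1.17.1 and matplotlib 3.10.9 were used, and the assignment of summits was checked on simulated summits. P-values were adjusted by the Benjamini-Hochberg method at 0.05.

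Named genes are the 12 strongest peaks, the 6 strongest at genes with 4 or more promoters, the 4 genes with most peaks (ties by highest value), up to 3 genes per list, those at the edge of 500 bp, CG12769 and the strongest carrier of each of 3 sequences. The last was further limited to windows free of other genes, and the 4 sequences of strongest peaks were an addition. Members and lists were chosen with earlier results of these data known. The lists were corrected after a first table of their shares had been seen, by taking out 12 wrongly matched names, which moved the Rab list from below to above the background; they carry no test. The classes by width, the share of eligible bases beside the promoter shares, and the genes with 1 promoter were also added after the data were seen.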

Additional observations from a re-analysis of the deposited data

How the results depend on the processing

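No paired analysis was possible because the labels give 1 group and no second group to pair with. Of the alternatives, 10 were planned, and 2, by peak width, were added after the data were seen. With a TSS distance of 200 bp, 62.9% of summits lay within 100 bp, the first promoter held 42.6% and the median was -34 bp; at 1000 bp, 61.1% were upstream and 32.3% within 100 bp. The strongest 2143 peaks of the IDR list gave 741 peaks, 71.1% upstream, 34.4% within 100 bp, a median of -111 bp, 33.9% at the first promoter, 50.3% of genes with several promoters and 4 differences between single and several genes. The whole pooled list gave 5958 peaks, 58.7%, 41.2%, -39 bp and 37.3% for the same measures other than the first promoter, and 5 differences between strong and weak peaks. Without peaks 390 bp wide there were 1315 peaks, 70.0% upstream, 34.8% within 100 bp, a median of -105 bp, 33.6% at the first promoter and 49.1% of genes with several promoters. With those alone there were 1277 peaks, 56.1%, 55.4%, -19 bp, 41.1% and 49.2%, with 7 differences between single and several genes and 0 between strong and weak peaks by Fisher's exact test (3 of 22 at an unadjusted p under 0.05). Without replicate 5 or 7, the share within 100 bp ran from 44.4% to 47.4% and the strong and weak peaks had 2 to 4 differences.

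The share upstream stayed above that of eligible bases in every setting run, as did the share within 100 bp. The first promoter was below the even share as reported and above it at 200 bp (42.6% against 38.9%), with TSSs joined within 100 bp (37.1% against 36.3%) and in the peaks 390 bp wide (41.1% against 38.2%). Differences between strong and weak peaks turned in 3 cases: within 100 bp to 8.39 points in the pooled list and 10.03 in the peaks 390 bp wide, and upstream to -7.52 points in the latter. A further 22 single differences kept their direction and lost the threshold. The cause of these changes was not tested. With windows of 50 bp to each side, the CRE stood in 0.424% against 0.119%, the CA repeat in 4.13% against 1.88% and GAGAGAG in 4.63% against 3.03% of promoters without a peak. Using only TSSs of protein-coding transcripts left every value as it was. Depth is unknown, and the lower end of each 30000-peak list does not show where binding ends.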
